A study of Homo sapiens with 24 samples.

Results

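Wild-type (WT) HEK293T cells were compared with their SETD2 knockout derivative (KO) at the level of the transcriptome. The members were the 4 RNA-seq libraries that the labels name as untreated WT replicates 1 and 2 and untreated KO replicates 1 and 2, out of 24 samples in the series. HEK293T is a transformed human embryonic kidney cell line, and in the KO line both alleles of the endogenous SETD2 gene had been disrupted in earlier work. Whether the KO line is a single clone is not given in the sources used here, and neither line received an agent or a transgene. Nothing in the labels says that the replicates came from separate cultures, so the p-values measure only the spread between these libraries, which may be technical. The remaining samples were chromatin immunoprecipitations, not analysed here, and the 6 libraries of the second RNA table. These profiled KO cells labelled untreated, KO cells expressing full-length SETD2 (SETD2 FL) and KO cells expressing its C-terminal segment (SETD2 C). In the paper both constructs were introduced by transfection and driven by a CMV promoter. None of the 6 libraries is labelled a vector control, so differences from KO there also set transfected against untreated cells. That table was used only to describe how the genes that separated WT from KO behaved in other libraries.

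SETD2 is the enzyme that trimethylates lysine 36 of histone H3 (H3K36me3) in mammalian cells. It travels with elongating RNA polymerase II, so the mark lies over the bodies of transcribed genes, where reader proteins of splicing, mismatch repair, histone deacetylation and DNA methylation bind it. Loss of SETD2 is a recurrent event in kidney cancer. The comparison of WT with KO asks which transcripts differ between cells with and without this enzyme.

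Expression was deposited as TPM, which is scaled by the length of each transcript and to a fixed sum per library, so the sequencing depth of the libraries is unknown. A TPM above 0 was listed for 25278 and 25032 genes in WT and for 25480 and 24744 genes in the libraries labelled KO. The Pearson correlation of log2 values across genes, which are not independent replicates, was 0.993 between the WT libraries, 0.995 between the KO libraries and 0.984 to 0.988 between the genotypes. WT replicate 1 stood apart: mitochondrially encoded protein genes made up 22.6% of its TPM, against 13.8% in WT replicate 2 and 11.8% and 12.2% in the KO libraries, and results are given below with and without it where it changed them. The cells carried the markers of HEK293T: VIM, KRT8, KRT18, NEFL, NEFM and INA were above 7 TPM in every library, PAX2 at 1.62 to 2.21 and NES at 1.88 to 2.33. Most markers of other cell types were low. The 4 endothelial markers were at most 0.20 TPM and the 3 hepatocyte markers listed at most 0.28 TPM. Of 5 fibroblast markers, DCN was at most 0.04 TPM and COL1A1 at 6.43 to 10.2 TPM, and the T cell marker CD3E was at most 0.04 TPM.

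The SETD2 transcript itself was not lower in the libraries labelled KO. SETD2 (ENSG00000181555) lies on the minus strand of chromosome 3 of GRCh38, from 47016428 to 47164113, and its reference transcript has 21 exons. Its TPM was 12.6 and 14.8 in WT and 16.2 and 16.3 in KO, with a log2 fold change of 0.11 (SE 0.08, adjusted p = 0.408, limma with Benjamini-Hochberg adjustment). A gene-level TPM cannot show whether the transcripts carried the disruption, so every direction given here rests on the labels. Of 14 genes tested that write or erase H3K36 methylation, SETD2 and the NSD and KDM enzymes among them, none was called at a 2-fold change and an adjusted p of 0.05 (limma), and 2 had an unadjusted p under 0.05, as did 24.9% of all genes tested. Their log2 fold changes lay between -0.26 and 0.28. None was called among 20 readers of H3K36 methylation (7 at an unadjusted p under 0.05), 9 genes of Polycomb repressive complex 2 (3) and 9 genes of the DNA methylation machinery (3), against the same 24.9% over all genes.

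Most genes had similar levels in both genotypes, and the genes that differed were mostly lower in the libraries labelled KO. Of 14746 protein-coding and lncRNA genes that reached 0.5 TPM in 2 or more libraries, 150 were lower in KO (1.02%) and 50 were higher (0.339%). A gene was called where the difference was 2-fold or more and the limma p after Benjamini-Hochberg adjustment did not exceed 0.05. Log2 fold changes are KO minus WT on the log2(scaled TPM + 0.5) scale, on which changes at low TPM appear smaller than they are. The changes ran from -5.45 to 4.37, and the median over all genes tested was -0.01. All 200 called genes had both KO libraries outside the range of the WT libraries, as did 56.9% of all genes tested. A change of at least 4-fold was reached by 34 lower and 7 higher genes, and one of at least 16-fold by 5 and 3 genes. Among the lower genes, 84 had a TPM under 1 in both KO libraries and 46 had a TPM of at least 5 in both WT libraries. In these bulk samples a smaller number of expressing cells and less RNA per cell cannot be told apart. Without WT replicate 1, 84 genes were lower and 51 higher, and 76 and 41 of these were among the genes called with all libraries. Leaving out KO replicate 1 gave 120 lower and 26 higher genes, and leaving out KO replicate 2 gave 101 and 22.

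**Figure D1:**
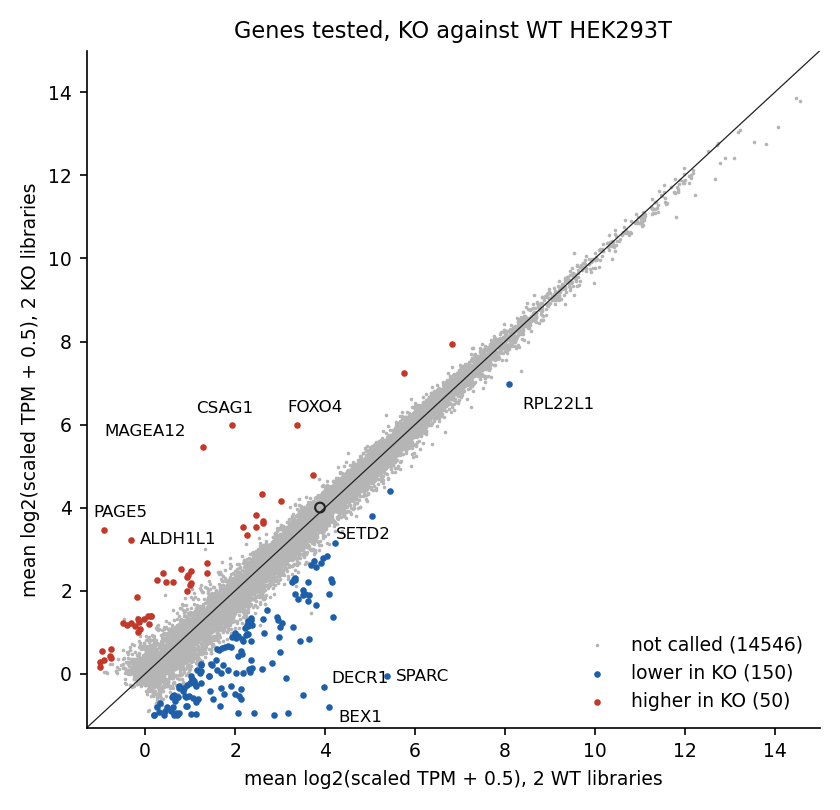
Mean log2(scaled TPM + 0.5) of the 2 WT libraries (x axis) and the 2 KO libraries (y axis) for the 14746 genes tested, one point per gene, with the line of equal levels. The 150 genes lower in KO (blue) fall below the line and the 50 higher genes (red) above it, while SETD2 (open circle) lies near the line.

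Several genes that WT cells transcribed clearly were close to absent in the libraries labelled KO. They do not belong to one pathway: the largest decreases were in a matrix glycoprotein, a mitochondrial enzyme, membrane proteins and a small neuronal protein. SPARC (chromosome 5, minus strand, 10 exons), a secreted collagen-binding glycoprotein of the extracellular matrix, had a TPM of 35.8 and 43.5 in WT and of 0.43 and 0.53 in KO. Its log2 fold change of -5.45 (SE 0.11, adjusted p = 1.1e-05, limma) was the lowest of all genes tested. BEX1, a brain-expressed X-linked adaptor gene, had 14.6 and 17.1 TPM in WT and 0.16 and 0 in KO, a log2 fold change of -4.90 (SE 0.16, adjusted p = 9.46e-05). DECR1 encodes the mitochondrial dienoyl-CoA reductase, an auxiliary enzyme for the beta-oxidation of polyunsaturated fatty acids. Its TPM was 15.4 and 13.9 in WT and 0.16 and 0.51 in KO (log2 fold change -4.30, SE 0.23, adjusted p = 0.000482). The libraries of each genotype lay close together for these genes and far from those of the other.

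The membrane and matrix genes GYPC, CYBA, MFAP2, RAMP1 and TNFRSF10D followed. GYPC, which encodes glycophorin C, a link between the plasma membrane and the cytoskeleton, was at 7.35 and 9.13 TPM in WT and 0 and 0.04 in KO (log2 fold change -4.13). CYBA, the p22phox subunit of the NADPH oxidases, was at 10.1 and 10.8 TPM in WT and 0.05 and 0.43 in KO (log2 fold change -4.01). MFAP2, a protein of elastic microfibrils, was at 6.97 and 5.95 TPM in WT and was listed at 0 in both KO libraries. None of the 6 libraries of the second table, all derived from KO cells, listed MFAP2 above 0 either. RAMP1, the partner of the calcitonin gene-related peptide receptor, fell from 4.27 and 5.10 TPM to 0.04 and 0 (log2 fold change -3.38). TNFRSF10D, a decoy receptor for the death ligand TRAIL, fell from 3.03 and 4.10 TPM to 0.04 and 0.01. The remaining large decreases were in MAGEH1, a widely expressed MAGE family gene on the X chromosome (7.85 and 8.05 TPM to 0.53 and 0.38), and ABHD14A, a hydrolase-fold protein (12.5 and 10.4 TPM to 1.22 and 1.49). ABHD14A overlaps the readthrough gene ABHD14A-ACY1, which was called lower as well, and reads of such genes can be split between them. The adjusted p of these 7 genes lay between 9.46e-05 and 0.000985 (limma).

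**Figure D2:**
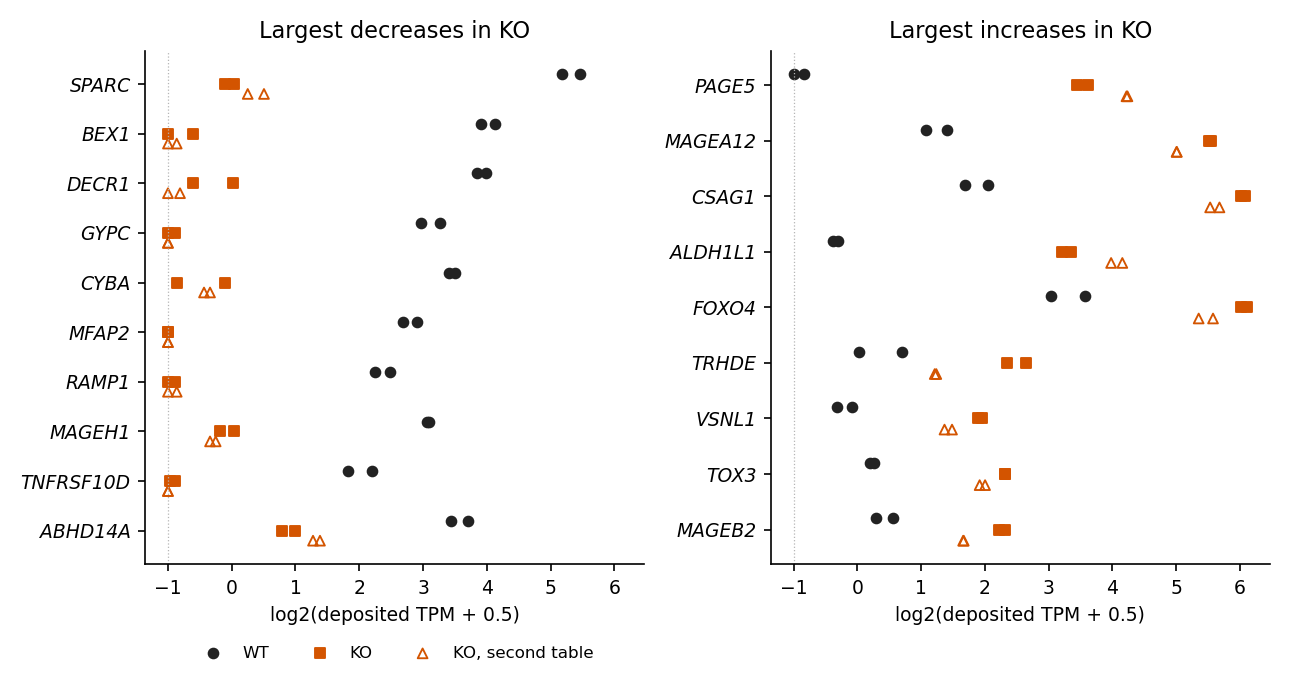
Deposited TPM as log2(TPM + 0.5) in each library for protein-coding genes with the largest decreases (left) and increases (right): WT (black circles), KO of the first table (orange squares) and KO of the second table (open triangles), with a dotted line at a TPM of 0. For every gene plotted the KO libraries of both tables lie on the same side of the WT libraries.

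In the opposite direction, the largest increases in the libraries labelled KO were in genes of the germ line. Cancer-testis antigens are normally transcribed in the testis and silent in most other tissues, where DNA methylation keeps their promoters inactive, and many lie in families on the X chromosome. PAGE5, a member of the PAGE family on the short arm of the X chromosome, was at 0.06 and 0 TPM in WT and 10.4 and 11.8 in KO, a log2 fold change of 4.37 (SE 0.15, adjusted p = 9.46e-05, limma). MAGEA12, a member of the MAGE-A family on the long arm of the X chromosome, was at 1.60 and 2.15 TPM in WT and 45.4 and 46.1 in KO, a log2 fold change of 4.18 (SE 0.10, adjusted p = 1.48e-05). CSAG1, its neighbour, was at 3.62 and 2.74 TPM in WT and 67.4 and 64.3 in KO, a log2 fold change of 4.06 (SE 0.17, adjusted p = 0.000199). MAGEB2, on the short arm, was at 0.72 and 0.97 TPM in WT and 4.46 and 4.17 in KO (log2 fold change 1.75, adjusted p = 0.00176).

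Of 104 cancer-testis antigen genes listed, 18 were tested, and 7 of them were called higher and none lower (background 0.339% higher). Only 14 of the 18 reached 0.5 TPM in both WT libraries, and 4 of these were called higher. The other 4 passed the filter on low TPM only through the KO libraries, and 3 of them, PAGE5, CTAG2 and SAGE1, were called, so that the count over the 18 is no support for a direction of the list. SSX2IP, which encodes a centrosomal protein, was among the 18 only through its name. The other called members, named after their values were seen, were CTAG2, SAGE1 and CT45A10, which rose from at most 1.37 TPM in WT to between 0.66 and 6.14 TPM in KO. SPANXD, of the SPANX family, was also called higher. It was listed at 0 in both WT libraries and at 0.65 and 0.88 TPM in KO, and the name rule of the list did not match it. Other members were expressed in both genotypes and were not called. MAGEA3 had 41.4 and 49.98 TPM in WT and 57.1 and 58.5 in KO (log2 fold change 0.21, adjusted p = 0.128), and PRAME, a related antigen on another chromosome, had 29.3 and 32.9 TPM in WT and 37.9 and 37.6 in KO (log2 fold change 0.15, adjusted p = 0.254). MAGEA1 had 1.10 and 1.34 TPM in WT and 0.44 in both KO libraries, a log2 fold change of -0.94 that was under the fold threshold (adjusted p = 0.0336). Members of the MAGE-A, CT45A, CTAG and SPANX families are near-identical copies, so that reads may have been divided among them. Without KO replicate 1, and likewise without KO replicate 2, 14 members were tested and 4 were higher.

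MAGEA12 and CSAG1 are arranged head to head. Their RefSeq start sites on GRCh38.p14 are 36 bases apart on opposite strands, and those of SAGE1 and CT45A10, the other such pair among the higher genes, are 272 bases apart. The promoters of the MAGEA12 and CSAG1 pair, of the SAGE1 and CT45A10 pair and of PAGE5 are shown because these genes rose from low levels. Each runs from 250 bases before to 50 bases after the start site, in the direction of the gene, from chrX:152733507-152733806 (plus strand), chrX:135893466-135893765 (plus strand) and chrX:55220096-55220395 (plus strand). Capitals mark CG dinucleotides, the sites of DNA methylation, of which there are 9, 14 and 10. The promoters taken from CSAG1 and CT45A10, on the minus strand, hold 16 and 18 and are not shown.
MAGEA12: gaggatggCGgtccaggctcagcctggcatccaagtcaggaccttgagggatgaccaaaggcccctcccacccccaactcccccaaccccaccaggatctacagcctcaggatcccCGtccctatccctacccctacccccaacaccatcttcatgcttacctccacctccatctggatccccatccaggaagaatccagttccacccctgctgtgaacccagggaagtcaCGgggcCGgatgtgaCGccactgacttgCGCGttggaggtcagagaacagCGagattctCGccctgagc
SAGE1: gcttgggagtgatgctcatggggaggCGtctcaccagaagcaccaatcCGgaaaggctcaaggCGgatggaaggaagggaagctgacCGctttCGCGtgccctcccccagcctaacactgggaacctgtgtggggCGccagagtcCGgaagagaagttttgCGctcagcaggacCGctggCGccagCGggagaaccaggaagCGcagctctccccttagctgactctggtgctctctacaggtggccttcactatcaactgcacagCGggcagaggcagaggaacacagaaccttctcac
PAGE5: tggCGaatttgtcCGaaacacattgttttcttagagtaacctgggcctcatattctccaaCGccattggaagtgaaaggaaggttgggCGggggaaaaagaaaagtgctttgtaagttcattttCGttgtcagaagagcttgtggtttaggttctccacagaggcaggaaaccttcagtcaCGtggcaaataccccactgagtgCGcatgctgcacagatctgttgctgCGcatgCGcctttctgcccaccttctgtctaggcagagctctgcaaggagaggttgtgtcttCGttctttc
The 6 higher cancer-testis antigens with an entry in the promoter table had a median of 15 CG dinucleotides in these 300 bases, and the 35116 RefSeq promoters had a median of 14 (quartiles 4 and 28).

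For comparison, the promoters of the 2 genes with the largest decreases are given from the same table, with CG dinucleotides in capitals. That of SPARC, at chr5:151686866-151687165 on the minus strand, holds 11 of them, and that of BEX1, at chrX:103064122-103064421 on the minus strand, holds 25.
SPARC: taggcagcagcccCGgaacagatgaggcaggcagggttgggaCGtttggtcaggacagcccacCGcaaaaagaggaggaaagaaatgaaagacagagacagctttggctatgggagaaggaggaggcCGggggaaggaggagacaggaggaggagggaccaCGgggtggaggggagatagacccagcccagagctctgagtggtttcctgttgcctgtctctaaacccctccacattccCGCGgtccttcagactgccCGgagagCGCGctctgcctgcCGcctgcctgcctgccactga
BEX1: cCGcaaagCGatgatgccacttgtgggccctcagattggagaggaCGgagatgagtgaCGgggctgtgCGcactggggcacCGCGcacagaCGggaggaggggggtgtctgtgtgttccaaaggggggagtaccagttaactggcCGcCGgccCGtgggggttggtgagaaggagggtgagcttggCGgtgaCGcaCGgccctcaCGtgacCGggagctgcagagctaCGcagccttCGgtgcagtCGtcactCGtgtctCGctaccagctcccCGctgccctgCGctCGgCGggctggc

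Outside the germ line genes, the largest increases were in metabolic, signalling and neuronal genes. ALDH1L1, the folate enzyme formyltetrahydrofolate dehydrogenase, was at 0.31 and 0.27 TPM in WT and 9.65 and 8.75 in KO, a log2 fold change of 3.53 (SE 0.14, adjusted p = 0.000155, limma). FOXO4, a forkhead transcription factor restrained by insulin and AKT signalling, was at 7.75 and 11.4 TPM in WT and 64.1 and 68.7 in KO, a log2 fold change of 2.63 (SE 0.11, adjusted p = 0.000199). Both KO libraries were far above both WT libraries for these genes. TRHDE, the ectoenzyme that degrades thyrotropin-releasing hormone, was at 0.52 and 1.13 TPM in WT and 4.61 and 5.75 in KO (log2 fold change 2.04). VSNL1, a neuronal calcium sensor, was at 0.44 and 0.30 TPM in WT and 3.20 and 3.36 in KO (log2 fold change 2.03). TOX3, an HMG-box factor of neurons and epithelia, was at 0.65 and 0.70 TPM in WT and 4.49 and 4.48 in KO (log2 fold change 1.99). The adjusted p of these 3 genes lay between 0.00112 and 0.00595 (limma).

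Zinc finger genes made up the largest group of decreases. ZNF genes encode proteins with arrays of C2H2 zinc fingers, and many of them carry a KRAB domain that recruits repressive chromatin to transposable elements. They are concentrated in clusters on chromosome 19, where H3K36me3 and repressive marks are known to occur together over their bodies. Of 433 ZNF genes tested, 35 were lower in the libraries labelled KO and none was higher (background 1.02% lower and 0.339% higher), and 1 of the 35 was the antisense RNA ZNF582-AS1. All 35 lay on chromosome 19, where they were 18.0% of the 194 ZNF genes tested. None of the 239 ZNF genes tested on other chromosomes was called (limma), 3 of them were lower and 1 higher at the adjusted p alone (3.17% and 1.32% over all genes), and 24 and 25 at an unadjusted p under 0.05 (14.1% and 10.8% over all genes). The other genes of chromosome 19 were called lower in 12 of 846 cases (1.42%). Of the 194, 24 passed the filter on low TPM only through WT, and 16 of these were among the 35. Of the 170 that reached 0.5 TPM in both KO libraries, 19 were lower.

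The lower ZNF genes were modestly transcribed in WT, with mean TPM values between 0.725 and 15.9 and a median of 3.42, and their mean TPM in KO ran from 0.125 to 4.29 with a median of 0.695. ZNF724 had 3.08 and 4.4 TPM in WT and 0.12 and 0.20 in KO, a log2 fold change of -2.74 (SE 0.17, adjusted p = 0.000854, limma). ZNF100 had 5.74 and 6.78 TPM in WT and 0.64 and 0.81 in KO (log2 fold change -2.56, adjusted p = 0.000482). ZNF83 had 3.39 and 4.07 TPM in WT and 0.40 and 0.19 in KO (log2 fold change -2.50, adjusted p = 0.00125). ZNF160 had 3.84 and 4.87 TPM in WT and 0.68 and 0.46 in KO (log2 fold change -2.27, adjusted p = 0.00124). In each of these genes the higher KO library was well below the lower WT library. Related ZNF genes share sequence, and the reads were not separated by strand in any stated way, so the division of reads among neighbours is uncertain. Fewer were called with 1 library left out, from 23 without WT replicate 1 to 29 without KO replicate 1, and in each of the 4 cases all of them lay on chromosome 19.

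The decreases were grouped along the chromosome. Called genes no more than 2 Mb from the next formed 4 clusters of at least 5 genes, which held all 35 lower ZNF genes. The clusters were drawn from the calls, so their counts are descriptions. In chr19:21082159-24129968 of GRCh38, 11 of 13 genes tested were lower in KO, with a median log2 fold change of -1.67. These included the lncRNA AC092329.4, which had 3.45 and 3.77 TPM in WT and 0.27 and 0.14 in KO (log2 fold change -2.62). In chr19:52594060-53392217, 8 of 10 genes tested were lower, all of them ZNF genes, with a median of -1.83. Only ZNF611 (-0.48) and ZNF845 (0.03) were not called there. The remaining clusters were more mixed. In chr19:36259540-37548762, 9 of 28 genes were lower, among them the lncRNA LINC01535 with 5.76 and 4.85 TPM in WT and 0.84 and 0.41 in KO, and all 28 log2 fold changes were negative. In chr19:56393656-57612722, 15 of 26 genes were lower. Across the 4 clusters, 74 of 77 genes tested had a negative log2 fold change, and 35 of the 63 ZNF genes were called.

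**Figure D3:**
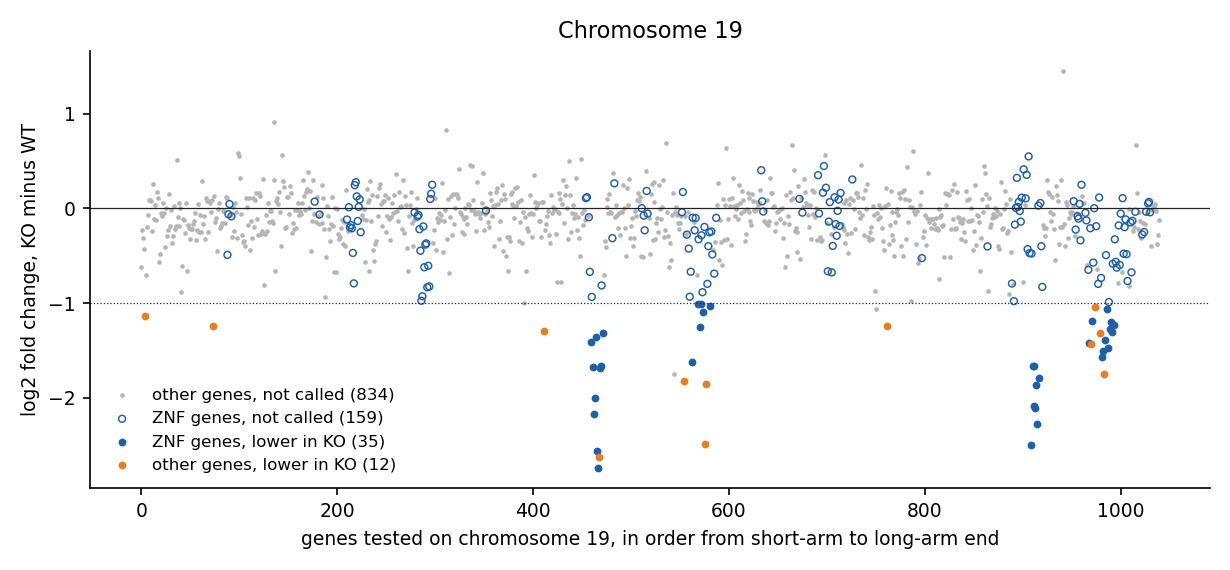
Log2 fold change (KO minus WT, y axis) of the 1040 genes tested on chromosome 19, in order along the chromosome (x axis, gene rank). Called ZNF genes (filled blue) fall in 4 groups between -1.01 and -2.74, among uncalled ZNF genes (open blue) and other genes (grey, or orange where called), and the dotted line marks a fold change of 2.

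Promoters of 3 of the 4 ZNF genes with the largest decreases are shown from RefSeq (GRCh38.p14), since these genes were all lower in KO. They lie at chr19:21767530-21767829 for ZNF100, chr19:23250345-23250644 for ZNF724 and chr19:52638306-52638605 for ZNF83, all on the minus strand. No rule is given for leaving out ZNF160, and all 3 promoters shown hold the letters marked. The RefSeq start site used for ZNF83, 52638355, differs from that of its GENCODE reference transcript, 52637086. Capitals mark CCGGAAG or its reverse complement CTTCCGG, a core recognised by ETS family factors, which contains a CG dinucleotide.
ZNF100: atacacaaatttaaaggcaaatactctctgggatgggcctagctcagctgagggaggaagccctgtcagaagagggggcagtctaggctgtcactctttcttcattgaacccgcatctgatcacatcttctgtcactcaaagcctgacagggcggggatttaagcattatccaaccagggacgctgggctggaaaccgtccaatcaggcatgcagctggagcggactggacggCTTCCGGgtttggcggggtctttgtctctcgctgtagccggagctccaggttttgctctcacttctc
ZNF724: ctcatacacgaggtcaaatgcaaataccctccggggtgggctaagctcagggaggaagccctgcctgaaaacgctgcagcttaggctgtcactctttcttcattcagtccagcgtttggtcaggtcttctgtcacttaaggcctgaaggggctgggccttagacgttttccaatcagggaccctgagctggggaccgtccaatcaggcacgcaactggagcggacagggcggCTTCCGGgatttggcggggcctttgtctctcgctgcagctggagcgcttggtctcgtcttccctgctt
ZNF83: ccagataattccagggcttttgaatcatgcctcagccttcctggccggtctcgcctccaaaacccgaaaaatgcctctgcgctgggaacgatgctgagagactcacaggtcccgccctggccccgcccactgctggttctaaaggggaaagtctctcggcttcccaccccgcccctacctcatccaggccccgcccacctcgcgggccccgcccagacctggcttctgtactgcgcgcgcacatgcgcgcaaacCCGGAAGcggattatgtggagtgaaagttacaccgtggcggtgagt
These letters, searched on both strands, were found in 22 of the 31 promoters with an entry among the lower ZNF genes (71.0%) and in 56 of 146 among the other ZNF genes of chromosome 19 (38.4%). They were also found in 2 of the 6 promoters with an entry among the higher cancer-testis antigens (33.3%). The promoter of SAGE1, shown above, is among those. Of all 35116 RefSeq promoters of this length, 10.3% held these letters. No rule is given for the choice of these letters, so the shares are descriptions and no independent support. Genes of a cluster are related by duplication and so share promoter sequence, and binding of a factor was not measured.

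The X chromosome carried called genes in both directions. It held 18 of the 50 higher genes (36%) and 17 of the 150 lower genes (11.3%), while 3.63% of all genes tested were on it, and 6.54% of its 535 genes were called. These shares are descriptions, since many called genes did not reach 0.5 TPM in both libraries of the genotype where they were low. Over all chromosomes this held for 21 of the 50 higher and 71 of the 150 lower genes. On X, PAGE5, CTAG2, SAGE1 and SPANXD were among them. Together, chromosomes 19 and X held 41.0% of the called genes. The higher genes on X included the cancer-testis antigens and FOXO4 described above. The BEX and TCEAL genes, small proteins of neuronal signalling and transcription that lie side by side on the long arm, were mostly not called. Of 10 tested, BEX1 and TCEAL3 were called lower, BEX5 was called higher and 7 were not called (background 1.36% in either direction). TCEAL3, a member of the elongation factor TFIIS-like group, was at 3.81 and 3.84 TPM in WT and 0.50 and 0.56 in KO (log2 fold change -2.16, adjusted p = 0.00125, limma). BEX5 was at 7.91 and 6.77 TPM in WT and 16.4 and 20.0 in KO (log2 fold change 1.12, adjusted p = 0.0203, limma). The call of BEX5 was lost without WT replicate 2 (log2 fold change 0.90), without KO replicate 2 (0.97, adjusted p = 0.0895), with a variance prior without trend (adjusted p = 0.0581) and without a filter on low TPM (adjusted p = 0.122). At the end of the short arm, PUDP, STS and PNPLA4, which follow each other there and were named after their values were seen, were all called lower, with PNPLA4, a lipase family gene, falling from 15.8 and 17.6 TPM to 2.05 and 2.35.

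**Figure D4:**
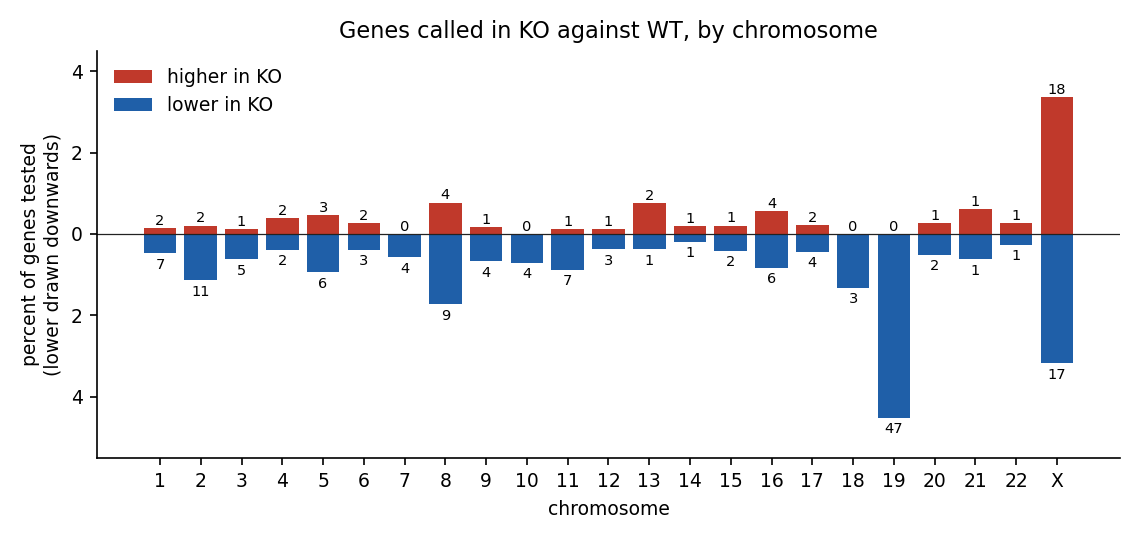
Percent of the genes tested on each chromosome that were called higher in KO (red, upwards) or lower in KO (blue, downwards), with the number of genes at each bar. Chromosome 19 has 47 lower and 0 higher genes, and the X chromosome 17 lower and 18 higher genes.

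Some chromosome regions leaned one way with few calls. On chromosome 17, only 6 of 903 genes tested were called, but 68.9% of them had a positive log2 fold change, against 48.9% over all genes, and their median was 0.13. The median stayed between 0.11 and 0.15 with each library left out in turn. Chromosome 1 leaned the same way below 120 Mb, where all 12 windows of 10 Mb had a positive median and 67.8% of 838 genes were positive, with a median of 0.10 and 5 genes called. Beyond it the median was -0.05. On chromosome 19 the median was -0.09 and 34.1% of 1040 genes were positive. Without any scaling between libraries the median over all genes was itself 0.11.

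Gene length and exon number were examined because the mark of SETD2 lies on gene bodies. By length of the reference transcript, the median log2 fold change went from -0.08 in the shortest of 5 equal groups (105 to 1516 nt) to 0.06 in the longest (5513 to 37027 nt). Without WT replicate 1 these medians were -0.01 and 0.03. Called genes were 2.63% of those with 4 to 6 exons and 0.504% of those with 13 or more. The group with 4 to 6 exons held 65 lower genes, and most of the 35 lower ZNF genes of chromosome 19 were among them. Of the lncRNAs 2.18% were called, and of the protein-coding genes 1.24%. LINC02506, on chromosome 4, was the lowest lncRNA outside chromosome 19, at 2.80 and 2.72 TPM in WT and 0.26 and 0.19 in KO. The higher lncRNAs with the largest changes were AC004224.2, LINC00992 and AC100801.1, with log2 fold changes between 1.38 and 1.71. AC004224.2 was at 0 and 0.54 TPM in WT and 2.30 and 1.60 in KO, and its call (adjusted p = 0.0465, limma) did not hold with a pseudocount of 0.1, where its adjusted p was 0.0874.

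Among matrix and adhesion genes, large changes were isolated (background 1.02% lower and 0.339% higher over all genes). Of 33 matricellular and other matrix genes tested, SPARC was called lower and SPOCK3, a SPARC-related proteoglycan, was called higher, from 1.27 and 1.41 TPM in WT to 5.03 and 4.44 in KO (log2 fold change 1.40, adjusted p = 0.00358, limma). None of 31 collagen and laminin genes was called (limma), 1 was lower at the adjusted p alone (3.17% over all genes) and 15 at an unadjusted p under 0.05 (14.1% over all genes), and the median log2 fold change was -0.28, or -0.22 without WT replicate 1. CDH12, a type II cadherin of the nervous system, was called lower among 16 cadherins, at 0.95 and 1.09 TPM in WT and 0.17 and 0.25 in KO (log2 fold change -1.16, adjusted p = 0.0252, limma). At the adjusted p alone (limma), 4 of the 16 were higher and 2 lower (1.32% and 3.17% over all genes), and the median log2 fold change was 0.18. The call of CDH12 was lost with a pseudocount of 1 (log2 fold change -0.78), without a filter (adjusted p = 0.0634) and without KO replicate 1 or 2 (adjusted p = 0.108 and 0.101), and without either WT replicate it did not pass the filter. No call was made with limma among 20 metalloproteinases and their inhibitors (5 at an unadjusted p under 0.05, against 24.9% over all genes), 3 clustered protocadherins (0), 57 axon guidance genes (12) or 48 voltage-gated ion channel genes (11). The metalloproteinases MMP10, MMP12 and MMP13 were at most 0.16 TPM in all 4 libraries and were not tested.

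In stress and metabolic lists, the unfolded protein and ATF4 response genes leaned downwards. Of 30 tested, only NUPR1 was called (background 1.02% lower). It fell from 10.98 and 9.76 TPM in WT to 4.13 and 3.38 in KO (log2 fold change -1.48, adjusted p = 0.00647, limma). At the adjusted p alone 7 were lower and none higher (3.17% and 1.32% over all genes), 3.33% of the 30 log2 fold changes were positive and the median was -0.27. The 7 included DDIT4, an inhibitor of mTOR signalling, with 128 and 165 TPM in WT and 90.1 in both KO libraries, and CHAC1, a glutathione-degrading enzyme, with 16.1 and 15.2 TPM in WT and 10.4 and 7.19 in KO. Without WT replicate 1, 2 were lower at the adjusted p alone and the median was -0.25. DECR1 was the only call among 27 beta-oxidation genes (background 1.02% lower). None was called with limma among 23 cholesterol synthesis genes (6 at an unadjusted p under 0.05, against 24.9% over all genes), 33 hypoxia and glycolysis genes (13), 29 p53 targets (11), 29 cell cycle regulators (8) or 26 mismatch repair and recombination genes (6). The 13 mitochondrially encoded protein genes were not called (5 at an unadjusted p under 0.05, all lower) and all had negative log2 fold changes, with a median of -0.74. This median was -0.23 without WT replicate 1, the library with the larger mitochondrial share, and without WT replicate 2 it was -1.27 and 10 of the 13 were called lower.

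Single genes changed in several other lists. A single call describes the gene and is no result about its list (background 1.02% lower and 0.339% higher). RPL22L1, the paralogue of ribosomal protein RPL22, was called lower, from 257.7 and 259.5 TPM in WT to 126.4 and 134.8 in KO (log2 fold change -1.11, adjusted p = 0.00295, limma), the only call among 82 cytosolic ribosomal protein genes. Without scaling its log2 fold change was -0.98, under the fold threshold. In KO of the second table RPL22L1 was at 232.2 and 243.2 TPM, so its level in cells of this label was not the same in the 2 tables. BMP2, a bone morphogenetic protein, was called higher, from 4.38 and 5.30 TPM to 12.2 and 11.1, among 47 genes of the Wnt, BMP, TGF-beta and FGF pathways. IFI35, an interferon-induced gene, rose from 1.43 and 1.47 TPM to 4.58 and 6.02, the only call among 20 interferon-stimulated genes. At the adjusted p alone (limma), 1 of these 20 was higher and 3 were lower (1.32% and 3.17% over all genes). STMN2, a microtubule regulator of neurons, was called among 22 neural genes, at 0.06 and 0.12 TPM in WT and 0.92 and 0.76 in KO (adjusted p = 0.0327, limma). STMN2 passed the filter on low TPM only through KO, and its call was lost with a pseudocount of 1 (log2 fold change 0.72), with all gene types tested (adjusted p = 0.0553) and without WT replicate 1 (adjusted p = 0.0866). CD68, a lysosomal glycoprotein of macrophages, was at 0.99 and 1.01 TPM in WT and 4.76 and 3.97 in KO, but at 0.74 and 1.53 TPM in KO of the second table. The immune markers CD3E, CD14 and LYZ were at most 0.4 TPM in all 4 libraries. Without a filter on low TPM, where 23684 genes were tested, 14 of the calls named here were lost, with adjusted p from 0.0514 for VSNL1 to 0.166 for AC004224.2 (limma). The others were TRHDE, NUPR1, RPL22L1, BEX5, SPOCK3, CDH12, STMN2, IFI35, CD68, LINC01535, LINC00992 and AC100801.1.

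No gene was called with limma among 34 HOX genes (12 at an unadjusted p under 0.05, against 24.9% over all genes), 14 MAP kinase phosphatase and feedback genes (3), 22 immediate early transcription factors (3) or 15 imprinted genes (5). The same held for 16 kidney and urogenital genes (4), 31 hnRNP and SR splicing factor genes (7), 20 tubulin genes (4) and 15 IGF genes (7). DUSP1 and DUSP5, phosphatases that switch off MAP kinases, had log2 fold changes of 0.26 (adjusted p = 0.106, limma) and 0.23 (adjusted p = 0.337). DUSP2 was at most 0.29 TPM and was not tested. The nuclear lncRNA NEAT1, the scaffold of paraspeckles, was at 55.03 and 51.8 TPM in WT and 57.1 and 58.4 in KO, and MALAT1, a lncRNA of nuclear speckles, at 19.9 and 20.6 TPM in WT and 23.7 and 16.9 in KO. The genotypes overlapped for MALAT1 (adjusted p = 0.593), and NEAT1 had a log2 fold change of -0.02 after scaling (adjusted p = 0.939).

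The second table holds separate libraries, normalised separately, so levels are set beside those of the first table without a test. The sample titles place the tables in different batches, and the name of an untreated KO library occurs in both. Whether KO libraries of the tables share a culture is not given. For most genes called between WT and KO, the KO level there was nearer to KO than to WT. The mean TPM of its KO libraries was nearer to that of KO than to that of WT for 131 of the 150 lower genes and for 38 of the 50 higher genes, and for 42.3% of all genes tested. All 7 higher cancer-testis antigens were nearer to KO: PAGE5 was at 18.2 and 18.4 TPM, MAGEA12 at 31.6 and 31.7, and CSAG1 at 50.8 and 45.8. SPARC was at 0.69 and 0.92 TPM in those libraries, BEX1 at 0.05 and 0, and DECR1 at 0 and 0.07. Of 15933 genes tested there, 12 were called higher (0.0753%) and 1 lower (0.00628%) in cells expressing SETD2 FL. In cells expressing SETD2 C, 597 were called higher (3.75%) and 50 lower (0.314%). The SETD2 FL and SETD2 C comparisons share the same KO libraries, which were labelled untreated, so that transfection differs along with the construct.

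With SETD2 C a part of the lower genes was called higher than KO, and with SETD2 FL only SPARC was. SETD2 itself was listed at 11.99 and 12.15 TPM in KO of the second table. It was at 439 and 422 TPM with SETD2 FL and at 1329 and 1264 TPM with SETD2 C. TPM is scaled by transcript length and SETD2 C is the shorter construct, so these levels are not directly comparable. The paper reports no significant difference between the mRNA levels of the constructs. Of the 150 lower genes, 108 passed the filter on low TPM in the second table and 42 did not. Some of the 108 passed it only through the SETD2 C libraries, ZNF816 among them. With SETD2 FL the median difference from KO over all 150 was 0.12 on the log2 scale, against 0.01 over all genes, and SPARC was called higher and the lncRNA AC005759.1 lower. With SETD2 C the median was 0.36, against 0.02 over all genes, and 36 genes were called higher and none lower (limma with Benjamini-Hochberg adjustment). Since many of these genes had low levels in KO, they can be set beside all genes with a mean KO level under 2 TPM in the second table: 27 of the 107 lower genes among them (25.2%) were at least 2-fold higher with SETD2 C, and 8.23% of all 2636 such genes were. SPARC was higher with both constructs. It was at 2.61 and 2.20 TPM with SETD2 FL (log2 difference 1.15, adjusted p = 0.037) and at 7.87 in both SETD2 C libraries (log2 difference 2.57, adjusted p = 3.21e-05), below the 35.8 and 43.5 TPM of WT in the first table. BEX1, DECR1, GYPC, CYBA, MFAP2, RAMP1 and TNFRSF10D remained at 0.41 TPM or less in all libraries of the second table.

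Among the lower ZNF genes of chromosome 19, 34 of 35 were above KO with SETD2 C, the median log2 difference was 1.02 and 19 were called higher (background 3.75%). Some of the 19, ZNF83, ZNF816 and ZNF525 among them, passed the filter on low TPM only through the SETD2 C libraries. The count of 19 is therefore a description and no support for a direction. Among the 159 ZNF genes of chromosome 19 that were not called between WT and KO, 77.4% were above KO, the median was 0.36 and 7 were called. Of all genes with a mean KO level under 2 TPM in the second table, 75.2% were above KO, and 209 of the 2424 that passed the filter were called higher. ZNF160 was at 0.80 and 0.34 TPM in KO of the second table, against 0.74 and 0.54 TPM in SETD2 FL and 3.18 and 2.57 TPM in SETD2 C libraries (log2 difference 1.58, adjusted p = 0.0023, limma). ZNF83 was at 0.22 and 0.26 TPM in KO and at 0.37 and 0.50 TPM when SETD2 FL was expressed, against 1.65 and 1.72 TPM with SETD2 C (log2 difference 1.47, adjusted p = 0.000893). The lncRNA LINC01535 of the same chromosome rose from 0.60 and 0.85 TPM in KO to 3.73 and 4.63 with SETD2 C (log2 difference 1.82, adjusted p = 0.000405). With SETD2 FL none of the 35 was called (limma), 4 of the 31 that passed the filter had a positive difference at an unadjusted p under 0.05 (8.69% over all genes), and the median difference was 0.18. The difference between the constructs was not tested for these genes.

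The higher genes were not called lower with either construct, but such calls were rare over all genes (background 0.00628% with SETD2 FL and 0.314% with SETD2 C). Their absence here is therefore no result about these genes. With SETD2 FL the median difference from KO over the 50 genes, of which 49 passed the filter, was 0.03 and none was called (limma). At an unadjusted limma p under 0.05, 9 were higher and 2 lower, against 8.69% and 7.22% over all genes. With SETD2 C the median was 0.11, with 8 called higher (background 3.75%) and none lower (limma). At an unadjusted limma p under 0.05, 19 were then higher and 7 lower, against 27.4% and 19.7% over all genes. No cancer-testis antigen of the 7 was called with either construct. MAGEA12 was at 35.7 and 37.3 TPM in SETD2 FL cells and 34.99 and 32.9 TPM in SETD2 C cells. PAGE5 was at 18.7 and 15.2 TPM in the former and 15.9 and 13.3 TPM in the latter. FOXO4 was at 47.3 and 40.4 TPM in KO of the second table and 29.5 and 29.7 with SETD2 C, a log2 difference of -0.70 (adjusted p = 0.000737, limma) that was under the fold threshold. ALDH1L1 was at 15.3 and 17.3 TPM in KO and 14.8 and 16.3 with SETD2 C (log2 difference -0.21, adjusted p = 0.109).

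**Figure D5:**
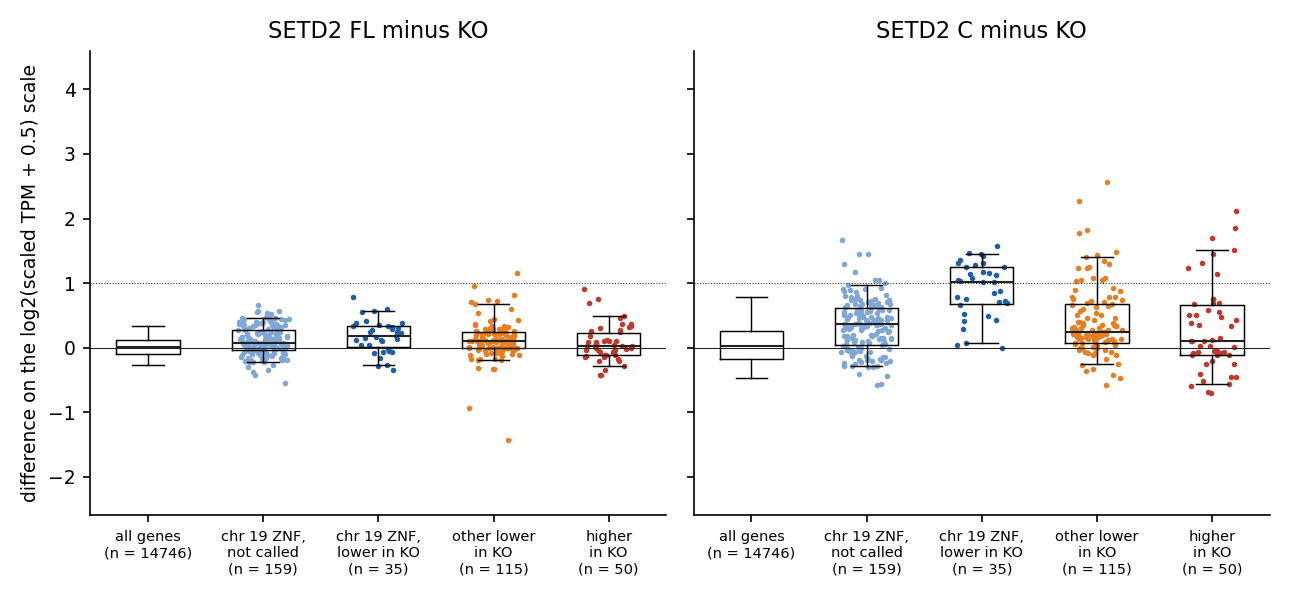
Difference from KO in the second table on the log2(scaled TPM + 0.5) scale with SETD2 FL (left) and SETD2 C (right), for all genes tested in the first table and for groups defined by the comparison of WT with KO, one point per gene for the groups, with boxes at the quartiles, the median as a line and whiskers at the 5th and 95th percentiles. The lower ZNF genes of chromosome 19 centre on 1.02 with SETD2 C and on 0.18 with SETD2 FL, and the dotted line marks a fold change of 2.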

How the data were processed

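RNA-seq libraries of WT and KO HEK293T cells were analysed from the first of 2 tables. Per the submitters' processing notes, the authors demultiplexed reads with bcl2fastq 2.18, aligned them with STAR 2.6.1c, quantified genes with RSEM 1.3.0 and deposited TPM values, without normalization between libraries. Read counts, and so counting errors, were not used here. The library strandedness is not given in the sources used here. Gene types and positions came from GENCODE 44 on GRCh38 (58472 of 58884 genes matched by identifier, 31 by symbol).

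TPM was divided by each library's median ratio over protein-coding and lncRNA genes with TPM of at least 1 in all libraries (factors 0.879 to 1.06). Genes reaching 0.5 TPM in 2 or more libraries were fitted on the log2(scaled TPM + 0.5) scale (R 4.3.3, limma 3.58.1, eBayes with trend) and called at a fold change of 2 and a Benjamini-Hochberg adjusted p of 0.05. With 2 libraries per genotype, an exact permutation test of one gene cannot go below p = 0.333. The procedure was tested on simulated data. The second table was fitted apart by the same steps, 6 libraries in one fit.

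The genes named were SETD2, the 10 protein-coding genes and 3 lncRNAs with the largest change in each direction, up to 4 called members of each list in each direction, and genes the study names for its RNA data. Of these genes 1, and of the marker genes 1, is not reported here. Other genes were named after their values were seen. Members, lists and clusters were chosen with earlier results of these data known.

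Replicate numbers came from the sample titles. Alternatives were other pseudocounts, filters, scalings, gene types, a variance prior without trend, a replicate block, the adjusted p alone and each library left out.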

Additional observations from a re-analysis of the deposited data

How the results depend on the processing

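Counts of called genes depended on the threshold, the treatment of low TPM and single libraries, while direction mostly did not. The numbers higher and lower in KO were 32 and 96 with a pseudocount of 1, 15 and 58 without a filter, where 23684 genes were tested, and 194 and 467 by the adjusted p alone. Without a filter, 4 cancer-testis antigens were higher and 9 ZNF genes lower. With 1 library left out, 22 to 65 genes were higher, 84 to 149 lower, 4 to 7 cancer-testis antigens higher and 23 to 29 ZNF genes lower. The share of lower genes among those called was 75% in the main analysis, 65.9% without scaling (71 higher, 137 lower) and 68.4% with quantile normalization (59 higher, 128 lower). Of 45 genes followed, NEAT1 reversed without scaling (0.11) and ran from -0.18 to 0.14 with 1 library left out, and MALAT1 from -0.37 to 0.083. Neither was called. In the other settings 424 of 448 values kept direction and side of the threshold and 23 fell short of it, 14 of them without a filter. The causes were not tested. WT and KO replicates share the numbers 1 and 2, but nothing says that a number marks a shared batch. Deviations of same-numbered libraries had a correlation of 0.147 over 2 pairs. The replicate block gave 55 higher and 159 lower genes, 8 cancer-testis antigens higher and 35 ZNF genes lower. For the second table, a test over the genes of the first table, chosen after seeing the data, gave the same 36 and 8 genes called higher with SETD2 C. Depth is unknown, so calls at low TPM carry an unknown counting error.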

Other observations

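Beyond protein-coding genes and lncRNAs, 1710 genes of other types passed the filter when all gene types were tested together, and 14 were higher and 27 lower in the libraries labelled KO (limma). These genes were named after their values were seen. MIR7-1, the hairpin of the microRNA miR-7 on chromosome 9, was listed at 0 TPM in both WT libraries and at 11.6 and 12.7 in KO. TSSC2, a pseudogene on chromosome 11, was at 1.17 and 0.78 TPM in WT and 10.4 and 9.16 in KO. CSAG4, a pseudogene next to MAGEA12 and CSAG1 on the X chromosome, was at 0.23 and 0.04 TPM in WT and 2.02 and 1.56 in KO. Within the ZNF clusters of chromosome 19, the pseudogenes IPO5P1 (5.42 and 4.38 TPM in WT, 0.13 and 0.52 in KO), ZNF321P (2.78 and 2.85, 0.43 and 0.31) and VN1R81P (2.97 and 3.38, 0.92 and 0.39) were lower. Several U1 RNA copies, among them RNU1-2 and RNU1-4, had identical values, 2.67 and 3.04 TPM in WT and 0 in both KO libraries. Reads cannot be told apart between identical copies.

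Of 929 head-to-head pairs of genes tested, with RefSeq start sites at most 1000 bases apart on opposite strands, 13 had a called member. In 9 of them the partner was not called, and in 4 both members were called, in the same direction. These were ZNF829 with ZNF568 on chromosome 19 (41 bases apart) and ZC4H2 with ZC3H12B on the X chromosome (85 bases apart), lower in KO, and the pairs CSAG1 with MAGEA12 and CT45A10 with SAGE1, higher.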
